A study of Mus musculus with 8 samples.

Results

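Gene expression at the end of the sampled span of reprogramming was set against its start, day 8 (D8) against day 2 (D2) of doxycycline, in mouse embryonic fibroblasts (MEFs). The comparison holds the 2 libraries labelled D8 and the 2 labelled D2, which are 4 of the 8 libraries of the series. It asks how much of the fibroblast programme was kept, lowered or raised over the span, and which genes were newly expressed at its end. The 2 libraries of D4 and the 2 of D6 entered the estimate of the spread and the description of the path between the ends. All cells were of the 4F2A strain, which carries a doxycycline-inducible cassette of the factors Oct4 (gene Pou5f1), Sox2, Klf4 and c-Myc (gene Myc). Per the labels they were taken from homozygous male embryos of 13.5 dpc, grown with 2 µg/mL doxycycline from day 0 in medium with serum replacement and 1000 U/mL LIF, and given new medium every day. The groups thus differ by label in the day of harvest alone. All titles carry the letters Ctr, which no label explains, and cells before induction or without doxycycline were not analysed here, so D2 stands for cells already exposed to the factors.

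Embryonic fibroblasts build a matrix of collagens, fibronectin and proteoglycans, and in culture many take on a contractile state in which actin stress fibres and their genes are driven by serum response factor, by stretch and by TGF-beta. When the 4 factors are switched on, cells that reprogramme are known to give up this mesenchymal state, to take on epithelial junctions, and to switch on the pluripotency network later, while many cells of such a culture never reach that point. A bulk profile averages over all of them: fewer cells of a type and less RNA per cell cannot be told apart.

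Levels are in CPM, the reads of a gene per 1000000 counted reads, and a change is the difference of the mean log2(CPM + 1) of the 2 days, D8 minus D2. A gene was called when limma gave an adjusted p under 0.05 over all tested genes, and the D2 and D8 libraries held 19409936 to 20161021 counted reads each. The label of the cells was checked against 12 defining markers of fibroblasts. All 12 were detected in the 4 libraries. Fap stood at 6.15 and 4.83 CPM on D2 and 22.5 and 25.1 CPM on D8 and Col1a1 at 10848 and 10885 CPM on D2 and 10932 and 11929 CPM on D8. The label of the sex did not match: Xist, the RNA of the inactive X chromosome, stood at 702 and 742 CPM on D2 and 1211 and 1238 CPM on D8, while the Y-linked genes Ddx3y, Uty, Kdm5d and Eif2s3y reached at most 0.309 CPM in these 4 libraries. This held on both days alike. Nothing in the labels tells whether replicates of a day are separate embryos or cultures, so p-values reflect the spread between these libraries alone, and that spread may be technical.

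Promoter sequences are shown for 8 genes, picked because their windows hold the motif named for them, so that a reader can see its letters in place. Most windows of their lists lack the motif, as the counts beside the results show. Each is the stretch of 250 bases that ends at the base before the annotated start, 5′ to 3′ on the strand of the gene, from RefSeq on GRCm38.p6. Windows were matched by symbol to 10963 of the tested genes. Both strands were searched for 9 motifs. The counts of 4 of them, the CArG box, the interferon-stimulated response element and the hypoxia and TEAD letters spelled out beside their counts, are given, and those of AP-1, SMAD, TATA, ETS and a palindrome that holds the hypoxia letters are not used here. In each set, capitals mark matches to the motif named for it. For 3 contractile genes that fell, Vcl, Cnn2 and Myl9, and for Srf, the gene of serum response factor itself, the capitals are CArG boxes, the sequence that this factor binds.

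Vcl (chr14:20929148-20929397, plus strand): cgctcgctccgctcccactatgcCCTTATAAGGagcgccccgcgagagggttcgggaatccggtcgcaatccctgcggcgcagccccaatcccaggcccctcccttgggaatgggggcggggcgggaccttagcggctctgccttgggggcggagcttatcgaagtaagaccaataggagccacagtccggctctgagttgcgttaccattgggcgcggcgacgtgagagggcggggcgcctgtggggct
Cnn2 (chr10:79988350-79988599, plus strand): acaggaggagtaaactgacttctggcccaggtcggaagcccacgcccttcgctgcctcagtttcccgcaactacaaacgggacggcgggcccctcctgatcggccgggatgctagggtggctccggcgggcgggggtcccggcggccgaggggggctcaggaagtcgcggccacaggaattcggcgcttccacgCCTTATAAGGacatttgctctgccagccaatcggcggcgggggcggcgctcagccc
Myl9 (chr2:156775214-156775463, plus strand): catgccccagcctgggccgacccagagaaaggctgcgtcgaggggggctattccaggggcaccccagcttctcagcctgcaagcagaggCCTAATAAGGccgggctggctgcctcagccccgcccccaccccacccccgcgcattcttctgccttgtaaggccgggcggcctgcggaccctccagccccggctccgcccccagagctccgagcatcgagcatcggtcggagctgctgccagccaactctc
Srf (chr17:46556163-46556412, minus strand): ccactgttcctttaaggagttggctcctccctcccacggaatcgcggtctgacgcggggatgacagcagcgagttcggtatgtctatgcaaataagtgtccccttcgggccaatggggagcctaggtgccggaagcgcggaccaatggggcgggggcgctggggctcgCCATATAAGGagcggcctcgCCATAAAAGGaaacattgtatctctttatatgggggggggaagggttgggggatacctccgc

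The match begins 227 bases before the start in Vcl, 161 in Myl9 and 56 in Cnn2, and Srf holds 2 matches, at 82 and 62 bases. For 3 interferon-induced genes that rose, Isg15, Ifit1 and Ifit3, the capitals are the core of the interferon-stimulated response element, a pair of GAAA repeats with any 2 bases between them. The 3 matches in Isg15, at 78, 72 and 66 bases before the start, each overlap the next.

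Isg15 (chr4:156200819-156201068, minus strand): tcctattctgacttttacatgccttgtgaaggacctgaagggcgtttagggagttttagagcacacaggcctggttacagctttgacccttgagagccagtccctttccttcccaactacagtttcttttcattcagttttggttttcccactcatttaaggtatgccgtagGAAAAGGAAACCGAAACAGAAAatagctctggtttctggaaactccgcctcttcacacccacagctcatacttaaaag
Ifit1 (chr19:34640639-34640888, plus strand): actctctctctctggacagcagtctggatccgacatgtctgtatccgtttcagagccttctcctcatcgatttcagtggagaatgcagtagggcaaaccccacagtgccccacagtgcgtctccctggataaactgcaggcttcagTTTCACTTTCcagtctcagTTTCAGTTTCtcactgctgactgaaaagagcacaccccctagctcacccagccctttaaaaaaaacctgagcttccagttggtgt
Ifit3 (chr19:34583279-34583528, plus strand): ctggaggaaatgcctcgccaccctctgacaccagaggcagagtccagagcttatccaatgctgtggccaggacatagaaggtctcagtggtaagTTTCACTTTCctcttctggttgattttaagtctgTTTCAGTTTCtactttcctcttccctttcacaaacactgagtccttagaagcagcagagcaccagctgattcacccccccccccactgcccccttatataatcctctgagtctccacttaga

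For Ldha, lactate dehydrogenase, which fell, the capitals hold the letters ACGTG that the hypoxia-inducible factors recognise. RefSeq gives this gene a second start, whose window is not printed.

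Ldha (chr7:46845554-46845803, plus strand): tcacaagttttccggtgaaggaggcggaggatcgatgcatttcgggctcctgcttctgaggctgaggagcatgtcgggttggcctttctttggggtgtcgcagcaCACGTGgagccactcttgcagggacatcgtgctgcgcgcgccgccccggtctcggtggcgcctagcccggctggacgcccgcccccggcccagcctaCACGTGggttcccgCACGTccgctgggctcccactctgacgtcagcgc

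Within Ldha the letters CACGTG contain ACGTG on both strands, so 4 of its 5 matches overlap in pairs. The matches are a description of these windows. The data hold no binding measurement, and the part of any factor in the changes was not tested.

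Over the whole span most genes differed between the days, and most of them by less than 2-fold. Of 15358 tested genes, 10807 (70.4%) were called, 7258 (47.3%) of them higher on D8 and 3549 (23.1%) lower. At least 2-fold by the ratio of mean CPM, 2462 genes (16%) were called higher and 948 (6.17%) lower. Genes termed gained were under 1 CPM in both D2 libraries, at 1 CPM or more in both D8 libraries and called, and there were 719 (4.68%). Genes termed lost, by the mirror of that rule, numbered 204 (1.33%), but 83 without D2 replicate 1 and 80 without D2 replicate 2. With those genes set aside, the D8 mean lay between 0.5 and 2 times the D2 mean in 11881 genes (77.4% of all tested), termed kept below, whether called or not. A further 761 genes were reduced below 0.5 times and 1793 had risen over 2 times. For 13162 genes (85.7%) the 2 libraries of D2 did not overlap with those of D8. Gained genes were protein-coding in 636 cases (88.5%, beside 88.1% of tested genes) and long intergenic RNAs in 28 cases (3.9%, beside 0.9%).

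These counts depend on the scale. On the deposited scale the median change over the 15358 genes was 0.17, and 67.2% of called genes were higher. Median-of-ratios scaling brought that median to -0.01 and the share of higher calls to 50.7%, and quantile normalization brought them to -0.05 and 45.1%. Medians of gene lists below should be read beside 0.17, and counts of called members beside the 47.3% higher and 23.1% lower of all tested genes. Lists whose direction turns with the scaling are named as such. The ends of the span lay well apart: the Euclidean distance over log2(CPM + 1) was 112.2 on average between a D2 and a D8 library, against 16.4 to 19.6 between the libraries of 1 day.

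The 12 lists of the fibroblast programme, 310 genes without repeats of which 296 were tested, went both ways. In them 115 genes rose, 142 fell and 39 were not called. By ratio of means, 151 (51.0%) were kept, beside 77.4% of all tested genes, 67 were reduced, 4 lost, 70 risen and 4 gained. The programme took 143728 and 143004 CPM on D2, and 100564 and 107471 CPM on D8. Its total therefore stood lower in both D8 libraries, while 74 members were risen or gained and 71 reduced or lost. The directions differed between lists, as the plot of classes by list shows.

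**Figure D1:**
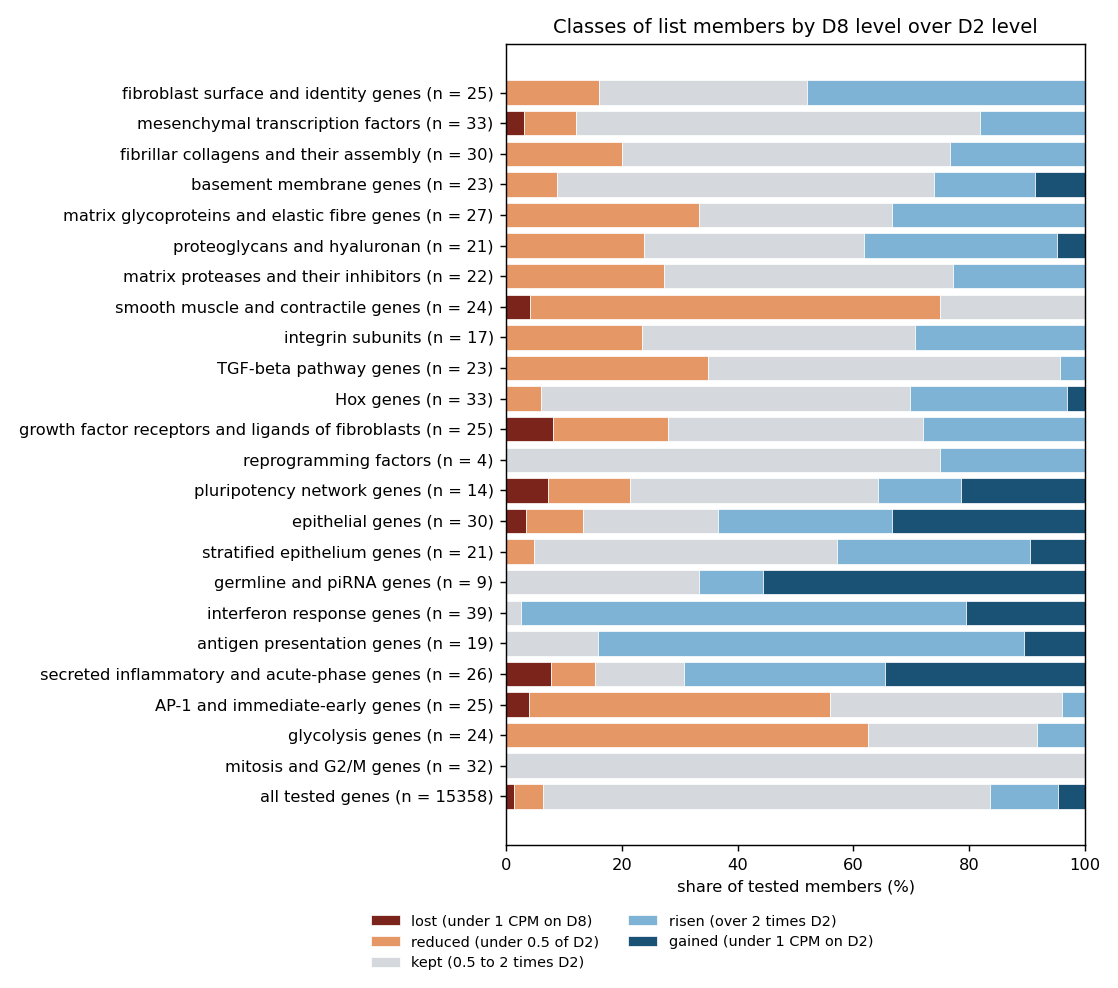
Share of tested members (x axis, %) in each class of D8 mean over D2 mean, for 12 lists of the fibroblast programme, 11 other lists and all tested genes (bottom bar); n is the number of tested members. Contractile genes held no risen member, interferon genes no reduced one, and all mitosis genes were kept, beside 77.4% kept over all tested genes.

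Fibroblast surface and identity genes stayed expressed, and more were over 2-fold up than were kept. Of 25 tested, 13 rose and 11 fell, with a median of 0.35 (0.17 over all tested genes), and 12 were risen, 9 kept, 4 reduced and none lost. Pi16, a marker of a universal adventitial fibroblast state, stood at 85.6 and 85.7 CPM on D2 and 609 and 604 CPM on D8 (log2 change 2.81 ± 0.050 (SE), adjusted p = 9.2e-14). Both D8 libraries lay far above both D2 libraries. Cd34, a sialomucin of progenitor and stromal cells, went from 145 and 153 to 711 and 712 CPM and Ly6a, the Sca-1 antigen, from 381 and 356 to 1142 and 1022 CPM, each with libraries that did not overlap. Dpt, which encodes the small matrix protein dermatopontin, stood at 1.69 and 1.69 CPM on D2 and 79.7 and 81.5 CPM on D8 (47.7-fold by ratio of means). Nt5e (CD73) rose 11.9-fold to 276 and 294 CPM, Dpp4 from 1.79 and 1.64 to 17.2 and 18.97 CPM, and Pdgfra, the receptor for platelet-derived growth factor on early mesenchyme, from 10.4 and 11.6 to 79.03 and 90.8 CPM (log2 change 2.83 ± 0.080 (SE), adjusted p = 4.1e-12). These are genes of quiescent or progenitor-like stroma in many tissues, and they sat beside members that fell. Thy1, the surface glycoprotein by which MEFs are often sorted, stood at 536 and 527 CPM on D2 and 396 and 378 CPM on D8 (log2 change -0.46 ± 0.068 (SE), adjusted p = 4.6e-05) and was kept. Itgb1, the common integrin beta chain, was reduced from 2530.3 and 2484 to 828 and 793 CPM, and Mcam, a pericyte adhesion molecule, from 32.7 and 33.5 to 5.25 and 6.28 CPM. Vim, the mesenchymal intermediate filament, fell from 4832 and 4664 to 2655 and 2516 CPM but stayed within 2-fold. Ddr2, a collagen receptor kinase, was the uncalled member, at 499.9 and 516 CPM on D2 and 513 and 522 CPM on D8.

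**Figure D2:**
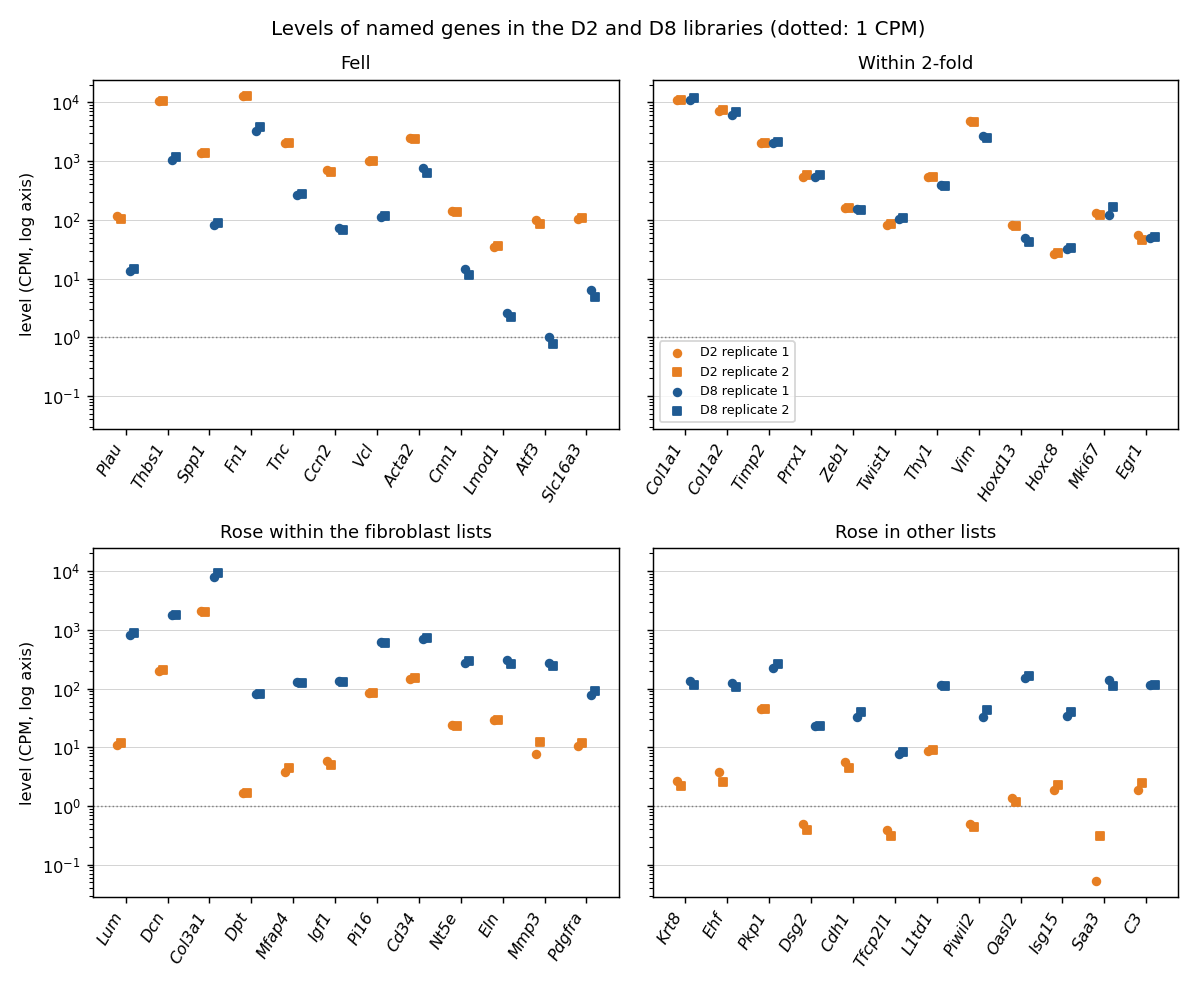
Level of 48 genes in each D2 library (orange) and each D8 library (blue), circles for replicate 1 and squares for replicate 2, on a log axis in CPM, with the 1 CPM line dotted. Genes in the top left fell with no overlap between days, those in the top right kept a D8 mean within 2-fold of D2, and those in the lower panels rose.

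Transcription factors of mesenchyme were the best kept list of the programme by share. Of 38 in the list 33 were tested, 16 rose and 9 fell, and 23 (69.7%) were kept, beside 77.4% of all tested genes. Prrx1, a homeobox factor of limb and body wall mesenchyme, stood at 534 and 577 CPM on D2 and 537 and 572 CPM on D8 (adjusted p = 0.95), so its D2 and D8 libraries overlapped. Zeb1, a repressor of E-cadherin, stood at 157 and 162 CPM on D2 and 152 and 146 CPM on D8 (adjusted p = 0.095) and Snai2 at 20.9 and 21.7 CPM on D2 and 19.8 and 19.7 CPM on D8 (adjusted p = 0.25). Twist1 rose by 0.34 on the log2 scale to 102 and 108 CPM. The best known repressors of the epithelial state were thus still expressed, Snai1 being lower, from 63.4 and 59.8 to 39 and 36.2 CPM. Meox2 showed the largest rise, from 3.22 and 3.14 to 25.8 and 28.4 CPM, followed by Osr2 from 3.03 and 2.24 to 12.5 and 12.3 CPM, while Msx2 fell from 9.28 and 9.96 to 2.42 and 2.41 CPM and Foxc2 from 21.7 and 21.4 to 6.18 and 7.20 CPM. The median of the list was 0.09 on the deposited scale and -0.09 after median-of-ratios scaling.

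The tested Hox genes, which record the position of a cell along the body axis and the limb, stayed expressed, with a shift between their ends. Of 36 Hox genes listed, 33 were tested, and 21 were kept (63.6%, beside 77.4% of all tested genes), 9 risen, 2 reduced, 1 gained and none lost. The directions lay in different parts of the clusters, a split seen in the values and given as a description. Of 21 tested genes of paralogue groups 1 to 8, the more anterior groups, 15 rose and 1 fell, with a median of 0.73. Of 12 of groups 9 to 13, those of the trunk end and the distal limb, none rose and 9 fell, with a median of -0.54. After quantile normalization the counts were 10 and 2 for the first set and 0 and 12 for the second, so the overall balance of 15 against 10 turns with the scaling while the contrast between the sets does not. Hoxd13, the digit gene at the end of its cluster, stood at 80.2 and 78.5 CPM on D2 and 48.9 and 41.2 CPM on D8 (log2 change -0.81 ± 0.072 (SE), adjusted p = 3.3e-07). The anterior genes Hoxc4 and Hoxa5 rose from 7.09 and 5.63 to 16.5 and 19.3 CPM and from 11.1 and 10.01 to 25.2 and 26.3 CPM, and Hoxb6 from 5.62 and 5.28 to 13.4 and 13.9 CPM.

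Fibrillar collagen output was kept in sum while its composition moved. The 30 tested genes of fibrillar collagens and their assembly summed to 36997 and 37248 CPM on D2 and 37286 and 41416 CPM on D8, and 11 rose and 14 fell, with a median of -0.09. Col1a1, the main chain of type I collagen, stood at 10848 and 10885 CPM on D2 and 10932 and 11929 CPM on D8 and was not called (adjusted p = 0.58), nor was Col1a2, at 7191 and 7353 CPM on D2 and 6098 and 6892 CPM on D8 (adjusted p = 0.13). Col3a1, the chain of type III collagen that is prominent in fetal and loose connective tissue, stood at 2063 and 2031 CPM on D2 and 7919 and 9329.9 CPM on D8 (log2 change 2.07 ± 0.090 (SE), adjusted p = 2.3e-10). By ratio of means it was 4.21-fold higher, and both D8 libraries lay above both D2 libraries. Col6a2 and Col14a1 were also risen, whereas Col5a2 of type V collagen, which limits fibril diameter, was reduced from 3361 and 3284 to 1488 and 1615 CPM and Col6a3 from 1395 and 1393 to 580.5 and 701 CPM. Most enzymes that cross-link or hydroxylate collagen fell: the lysyl oxidase Loxl4 went from 226 and 217 to 23.3 and 27.4 CPM, the prolyl hydroxylase subunits P4ha1 and P4ha2 from 402 and 376 to 120.5 and 119.8 CPM and from 139.5 and 131 to 52.01 and 49.6 CPM, and the lysyl hydroxylase Plod1 from 189 and 180.4 to 69.9 and 74.5 CPM. Lox itself was kept, from 2809 and 2887 to 2193 and 2266 CPM. The hydroxylase subunit P4ha3 was not called, at 34.7 and 38.5 CPM on D2 and 39.5 and 41.7 CPM on D8. The procollagen proteinases Adamts2 and Bmp1 rose, from 39.4 and 41.3 to 125 and 127 CPM and from 296 and 309 to 391 and 372 CPM.

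Basement membrane genes were kept less often than tested genes at large. Of 23 tested, 15 (65.2%) were kept, beside 77.4% of all tested genes. In the list 8 rose and 13 fell (56.5%, beside 23.1% of all tested genes), with a median of -0.26 (0.17 over all tested genes). Nid1, the linker nidogen, was reduced from 913 and 876 to 315 and 359.6 CPM and Lama1 from 22.5 and 26.99 to 8.50 and 9.02 CPM. The largest rise was that of Lama3, the chain of the epithelial laminin 332, from 1.09 and 1.32 to 30.1 and 33.4 CPM (log2 change 3.89 ± 0.12 (SE), adjusted p = 8.7e-12). Its partner chain Lamb3 rose from 14.9 and 15.8 to 36.99 and 35.1 CPM.

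Matrix glycoproteins split by level. The 27 tested genes summed to 37326 and 36985 CPM on D2 and to 13771 and 15295 CPM on D8, yet 13 rose and 11 fell, with a median of 0.13 (-0.06 after median-of-ratios scaling, with 12 in each direction). The fall of the sum lay in a few abundant genes. Fn1, fibronectin, stood at 13032 and 12686 CPM on D2 and 3258 and 3822 CPM on D8 (log2 change -1.86 ± 0.11 (SE), adjusted p = 3.6e-09), and Thbs1, thrombospondin 1, at 10469 and 10379 CPM on D2 and 1043 and 1174 CPM on D8 (log2 change -3.23 ± 0.078 (SE), adjusted p = 1.1e-12). Both are adhesive proteins of provisional, wound-type matrix, as are Tnc, tenascin C, which went from 2029 and 1994 to 269 and 280.1 CPM, and Spp1, osteopontin, which went from 1388 and 1399.9 to 82.5 and 86.7 CPM (16.5-fold lower). Genes of elastic fibres and soft connective tissue moved in both directions. Eln, elastin, stood at 29.4 and 28.7 CPM on D2 and 302 and 264 CPM on D8 (log2 change 3.24 ± 0.061 (SE), adjusted p = 1.4e-13), Mfap4, a microfibril-associated protein, rose from 3.82 and 4.38 to 132 and 125 CPM, Tnxb, tenascin X, from 4.76 and 4.35 to 46.8 and 51.02 CPM and Igfbp5, an IGF-binding protein, from 151 and 159.7 to 880.0 and 1028 CPM. In each of these 4 genes both D8 libraries lay above both D2 libraries. By contrast Fbn2, fibrillin 2, was reduced from 467 and 484 to 108 and 120.1 CPM, Fbln2 and Fbln5, both fibulins, from 3485 and 3605 to 1264 and 1367 CPM and from 519 and 509 to 240.5 and 244 CPM, and Ltbp1, which tethers latent TGF-beta, from 243 and 231 to 108 and 121 CPM. Efemp2, fibulin 4, fell from 238 and 237 to 128 and 131 CPM and was kept.

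Small leucine-rich proteoglycans, which coat collagen fibrils, held the largest rise of the programme. Lum, lumican, stood at 10.9 and 11.8 CPM on D2 and 819 and 869 CPM on D8 (log2 change 6.10 ± 0.060 (SE), adjusted p = 3.5e-16), and Dcn, decorin, at 199.8 and 208 CPM on D2 and 1809 and 1754 CPM on D8 (log2 change 3.12 ± 0.058 (SE), adjusted p = 1.4e-13). By ratio of means Lum was 74.6-fold higher and Dcn 8.73-fold, and neither gene's days overlapped. Of the same family, Ogn was risen too, from 143 and 132 to 435 and 439.5 CPM, Aspn from 41.2 and 39.2 to 143 and 149.6 CPM and Prelp from 572 and 634 to 1239 and 1257 CPM, whereas Bgn, biglycan, fell from 3562 and 3570.0 to 2379 and 2544 CPM and was kept. Heparan sulphate carriers of the cell surface went both ways. The syndecans Sdc4 and Sdc3 were reduced, from 192 and 201 to 74.7 and 77.3 CPM and from 255 and 267 to 123 and 126 CPM, and so were the glypicans Gpc1, from 255 and 258 to 102 and 102 CPM, and Gpc4, from 433 and 418 to 182 and 188 CPM. The glypicans Gpc3 and Gpc6 had risen, from 20.3 and 16.3 to 34.5 and 42.1 CPM and from 57.9 and 54.9 to 126 and 138 CPM. Has2, the main hyaluronan synthase of mesenchyme, fell from 87.7 and 90.9 to 32.6 and 35.4 CPM. Over the 21 tested genes 9 rose and 10 fell, and the median, 0.04 as deposited, was -0.14 after median-of-ratios scaling.

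The contractile genes were the one list of the fibroblast programme in which no member rose. Of 24 tested smooth muscle and contractile genes, 22 fell and 2 were not called, 17 were reduced, 1 was lost and 6 kept, with a median of -1.70 (0.17 over all tested genes). No member rose under either alternative scaling. Their sum went from 17140 and 16710 CPM to 5363 and 5136 CPM. Acta2, smooth muscle actin, the standard marker of myofibroblasts, stood at 2448 and 2339.9 CPM on D2 and 752 and 628 CPM on D8 (log2 change -1.80 ± 0.084 (SE), adjusted p = 4.8e-10). Both D8 libraries lay below both D2 libraries, and neither was near 0. Vcl, vinculin, which ties actin to focal adhesions, stood at 1009 and 998 CPM on D2 and 111 and 118 CPM on D8 (log2 change -3.12 ± 0.059 (SE), adjusted p = 1.4e-13), 8.76-fold lower. Cnn1, calponin, stood at 142 and 138 CPM on D2 and 14.4 and 11.6 CPM on D8 (log2 change -3.34 ± 0.11 (SE), adjusted p = 1.7e-11), and Lmod1, an actin nucleator of smooth muscle, went from 34.9 and 36.4 to 2.58 and 2.20 CPM. Ankrd1, a stretch-induced cofactor, was lost, from 19.05 and 16.8 to 0.618 and 0.513 CPM. The filament genes followed, with Tpm1 from 2209 and 2035 to 464 and 457 CPM, Actn1 from 1049 and 1039 to 234 and 219 CPM, Flna from 2725 and 2728 to 954 and 967 CPM and Tagln from 449 and 448 to 147 and 120.1 CPM. The uncalled members were Mylk, the myosin light chain kinase, at 8.41 and 7.89 CPM on D2 and 7.21 and 7.48 CPM on D8, and Synpo2.

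Returning to the sequences shown first, CArG boxes were found in 4 of 23 windows of this list (17.4%, those of Vcl, Cnn2, Myl9 and Myl6), beside 1.5% of all 32851 promoter windows. They were also found in 4.3% of windows of genes called at least 2-fold lower and in 0.9% of those at least 2-fold higher. The letters GGAATG, which TEAD factors recognise, were in 10 of the 23 windows (43.5%, beside 12.6% of all windows). For genes called at least 2-fold lower the share was 16.4% of windows, and for those at least 2-fold higher 12.8%. Srf itself, at 74.3 and 75.95 CPM on D2 and 24.2 and 24.1 CPM on D8, fell by 1.60 on the log2 scale. Sites farther from the start were not searched.

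Integrin subunits, the receptors through which cells hold the matrix, changed with their partners in part. Of 17 tested, 6 rose and 10 fell, with a median of -0.39. Itga5, the fibronectin receptor chain, was reduced from 449 and 439.6 to 132 and 142 CPM (log2 change -1.69 ± 0.054 (SE), adjusted p = 1.3e-11), and its partner Itgb1 from 2530.3 and 2484 to 828 and 793 CPM. Itgb4, the hemidesmosome chain of epithelia, rose from 336 and 348 to 801 and 847 CPM, while Itga6, with which it pairs, fell from 169.6 and 171 to 93.2 and 96.8 CPM. Itga3 was not called, at 12.4 and 12.5 CPM on D2 and 11.7 and 10.5 CPM on D8.

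Most genes of the TGF-beta pathway fell, and several of its targets fell far. Of 23 tested, 3 rose and 16 fell, with a median of -0.76. By ratio of means 14 were kept (60.9%, beside 77.4% of all tested genes), 8 reduced and 1 risen. The sum of the list went from 15836 and 15651 CPM to 3047 and 3270 CPM. Most of that fall was the fall of Thbs1, whose levels are given above with the matrix glycoproteins. Among ligands Tgfb1 was reduced from 44.8 and 47.4 to 19.6 and 19.5 CPM, and Inhba, the activin chain, from 279 and 292 to 64.3 and 60.4 CPM. Among receptors Tgfbr2 fell but was kept, from 540.0 and 537 to 407 and 431 CPM, and Tgfbr3, the co-receptor betaglycan, rose from 24.2 and 25.1 to 88.4 and 101 CPM. Tgfbr1 was called lower, from 48.1 and 50.4 to 42.04 and 44.05 CPM, but not without D2 replicate 2 (adjusted p = 0.094) or D8 replicate 1 (adjusted p = 0.071). The signal transducers Smad3 and Smad4 were not called, at 78.1 and 78.4 CPM on D2 and 70.7 and 76.1 CPM on D8 and at 82.4 and 86.6 CPM on D2 and 84.1 and 84.4 CPM on D8. Among the targets, Ccn2, connective tissue growth factor (chromosome 10, 24595442 to 24598683, mm10), stood at 711 and 657 CPM on D2 and 71.2 and 66.5 CPM on D8 (log2 change -3.29 ± 0.080 (SE), adjusted p = 1.1e-12), 9.94-fold lower. In both D8 libraries it lay below both D2 libraries. Other targets fell too, Ccn1 from 402 and 374 to 65.8 and 71.05 CPM, and Smad7, the inhibitory feedback gene, from 31.4 and 29.7 to 9.89 and 9.23 CPM. Thbs1 stands in more than 1 list and is counted in each.

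Proteases and growth factors went both ways. Of 22 tested matrix proteases and inhibitors, 11 rose and 10 fell, with a median of 0.16 (-0.03 after median-of-ratios scaling). Genes of the plasmin system fell: Plau, urokinase, went from 115 and 102 to 13.5 and 14.5 CPM, its receptor Plaur from 50.8 and 44.1 to 10.8 and 9.79 CPM and Plat from 113 and 118 to 49.1 and 52.6 CPM. Matrix metalloproteinases rose, Mmp3, stromelysin, at 7.81 and 12.2 CPM on D2 and 269 and 245 CPM on D8 (log2 change 4.58 ± 0.13 (SE), adjusted p = 5.5e-12) and Mmp2, gelatinase A, at 282 and 289 CPM on D2 and 871 and 918 CPM on D8, while Timp3 was reduced from 2909 and 3004 to 1302 and 1374 CPM and Timp2 was not called, at 1996 and 1999 CPM on D2 and 2026 and 2147 CPM on D8. Among 25 growth factor genes 13 rose (52.0%, beside 47.3% of all tested genes) and 10 fell (40.0%, beside 23.1%), a balance that was 11 against 12 after median-of-ratios scaling. Igf1 stood at 5.90 and 5.03 CPM on D2 and 132 and 129.9 CPM on D8 (log2 change 4.36 ± 0.15 (SE), adjusted p = 1.9e-11), Kitl, the ligand of Kit, at 5.16 and 5.48 CPM on D2 and 58.01 and 55.2 CPM on D8, and Hgf, the ligand of Met, at 3.05 and 2.81 CPM on D2 and 19.5 and 22.2 CPM on D8. The EGF-family ligands moved down: Hbegf went from 89.8 and 80.7 to 4.28 and 3.49 CPM, Ereg from 68.1 and 69.9 to 23.2 and 24.2 CPM and Areg was lost, from 2.13 and 2.59 to 0.206 and 0.308 CPM. Fgf5 was lost as well, from 1.39 and 1.34 to 0.0515 and 0.0513 CPM. The receptor Egfr, in contrast, rose from 96.9 and 99.9 to 160.3 and 182 CPM.

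**Figure D3:**
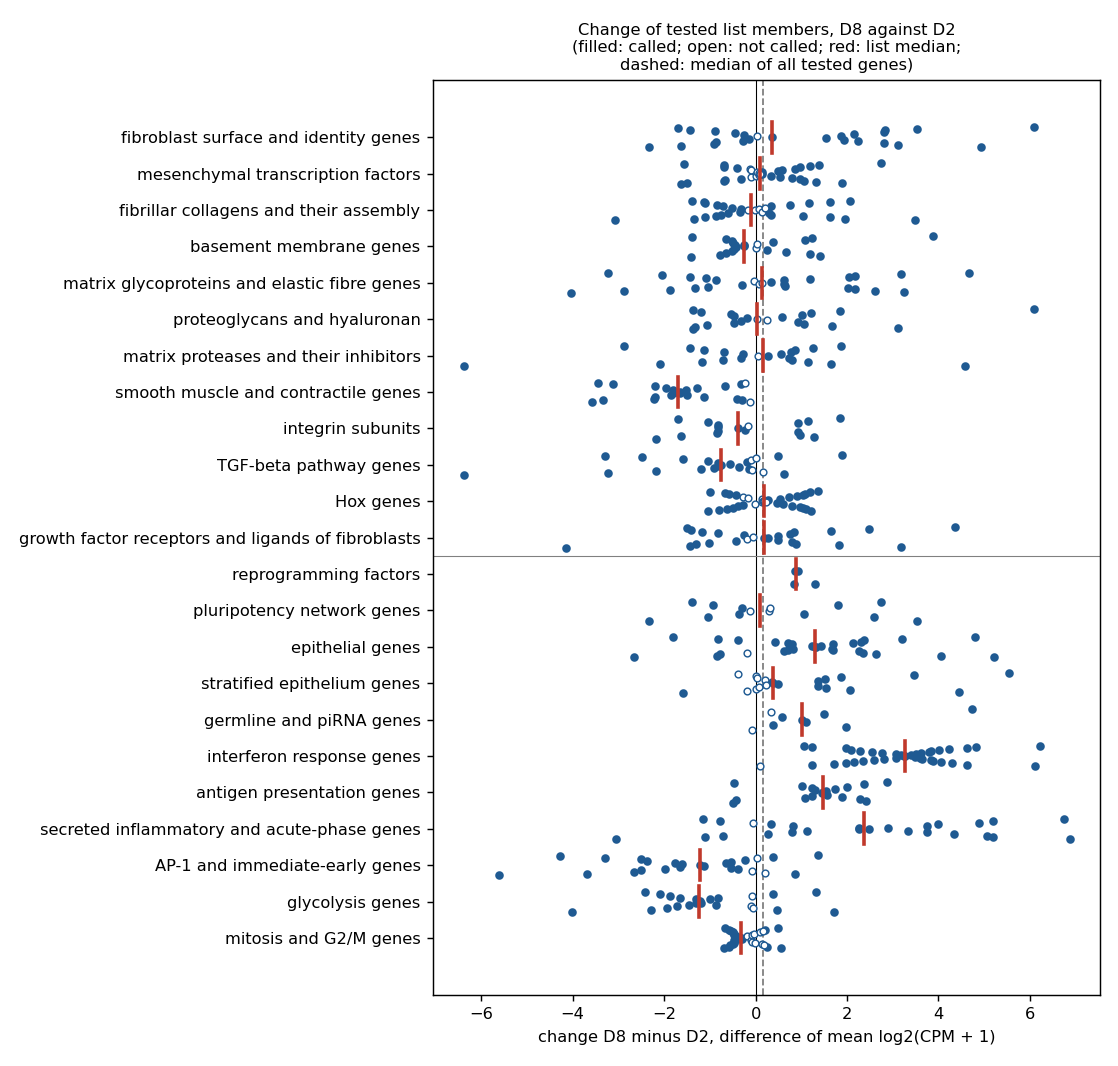
Difference of mean log2(CPM + 1), D8 minus D2, of each tested member (points) of the gene lists; filled points were called, open points were not, the red bar is the median of the list and the dashed line the median of all tested genes, 0.17. Contractile, TGF-beta, AP-1 and glycolysis genes lie mostly below the line and interferon and inflammatory genes mostly above it.

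All 4 reprogramming factors were expressed on both days and rose. Pou5f1 stood at 115 and 112 CPM on D2 and 277 and 286 CPM on D8 (log2 change 1.30 ± 0.051 (SE), adjusted p = 9.2e-11), Sox2 at 107 and 111 CPM on D2 and 204 and 212 CPM on D8, Klf4 at 334 and 326 CPM on D2 and 589.5 and 596 CPM on D8 and Myc at 404 and 383 CPM on D2 and 712 and 722 CPM on D8. The 3 others rose by 0.93 for Sox2, 0.84 for Klf4 and 0.86 for Myc. Reads of the cassette and of the endogenous genes cannot be told apart in this table. Most of the pluripotency network beyond these factors stayed under 1 CPM. Of 40 network genes 14 were tested, that is reached 1 CPM in 2 libraries, and of these 5 rose and 6 fell. Nanog stood at 0.521 and 0.252 CPM on D2 and 0.378 and 0.569 CPM on D8, Zfp42 (Rex1) at 0 and 0.0498 CPM on D2 and 0.103 and 0.359 CPM on D8 and Esrrb at 0.0496 and 0.199 CPM on D2 and 0.103 and 0 CPM on D8, all under 1 CPM, and Prdm14 and Eras were listed at 0 in the 4 libraries. A few members did come up from such levels. Tfcp2l1, a factor of the naive state, was gained, from 0.397 and 0.306 to 7.80 and 8.24 CPM (log2 change 2.74 ± 0.14 (SE), adjusted p = 1.2e-09), as were Gdf3, from 0.496 and 0.448 to 7.95 and 7.95 CPM, and Fbxo15, from 0.347 and 0.199 to 3.40 and 3.50 CPM. L1td1, which binds RNA in pluripotent cells, stood at 8.78 and 9.09 CPM on D2 and 116 and 110.2 CPM on D8 (log2 change 3.52 ± 0.068 (SE), adjusted p = 1.6e-13). Others went down, with Klf5 lost, from 7.86 and 8.29 to 0.799 and 0.794 CPM, and Tbx3 and Klf2 reduced from 22.1 and 19.7 to 9.79 and 9.38 CPM and from 12.7 and 9.61 to 3.97 and 3.18 CPM. Of 13 early and intermediate markers of reprogramming 9 were tested, and 5 rose and 4 fell. Icam1 rose from 5.06 and 5.98 to 26.4 and 22.5 CPM and Cd24a fell from 238 and 237 to 139.5 and 133 CPM, while Epcam, Alpl, Kit and Sall4 were not tested.

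Many epithelial genes rose from low levels, while Epcam stayed under 1 CPM. Of 42 in the list 30 were tested, 23 rose, 6 fell and 1 was not called, with a median of 1.31 (0.17 over all tested genes), and 10 were gained, 33.3% beside 4.68% of all tested genes. Cdh1, E-cadherin, stood at 5.70 and 4.43 CPM on D2 and 32.4 and 40.7 CPM on D8 (log2 change 2.63 ± 0.12 (SE), adjusted p = 3.7e-10). Cdh2, N-cadherin, moved the other way, from 207 and 199.9 to 79.8 and 89.01 CPM, and was still above 79 CPM in both D8 libraries. Krt8, a keratin of simple epithelia (ENSMUSG00000049382, chromosome 15, 101996698 to 102004482, mm10), stood at 2.64 and 2.17 CPM on D2 and 134 and 116 CPM on D8 (log2 change 5.21 ± 0.14 (SE), adjusted p = 3e-12). Its usual partner Krt18 stayed untested, at 0.347 and 0.0498 CPM on D2 and 0.515 and 0.154 CPM on D8. Ehf, an epithelial ETS factor, rose from 3.82 and 2.59 to 125 and 107 CPM, and Elf3 of the same class was gained, from 0.0992 and 0 to 6.41 and 11.7 CPM, the 2 D8 libraries differing by close to 2-fold. Dsg2 and Ocln, of desmosomes and tight junctions, were gained, from 0.496 and 0.398 to 23.3 and 22.8 CPM and from 0 and 0.149 to 1.70 and 2.05 CPM, and Pkp1, plakophilin, rose from 45.04 and 45.8 to 224 and 258 CPM. Cldn3 was gained, from 0.595 and 0.647 to 5.28 and 7.12 CPM. Epcam, the marker of established epithelium, stayed under 1 CPM, at 0.0496 and 0.0498 CPM on D2 and 0.618 and 0.974 CPM on D8, and the epithelial splicing factor Esrp2 fell from 5.95 and 5.83 to 2.86 and 2.79 CPM.

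The stratified epithelium list, which marks epidermis, held members that rose and keratins that were not called. Of 30, 21 were tested, 12 rose (57.1%, beside 47.3% of all tested genes) and 1 fell, with a median of 0.39, but 9 against 5 with a median of -0.02 after quantile normalization. Lgals7, galectin 7, stood at 1.64 and 1.69 CPM on D2 and 129.6 and 116 CPM on D8 (log2 change 5.54 ± 0.13 (SE), adjusted p = 8.2e-13), Tgm3, a transglutaminase, at 7.14 and 6.23 CPM on D2 and 166 and 166 CPM on D8, and Aqp3, an aquaglyceroporin, at 19.6 and 18.4 CPM on D2 and 208 and 231 CPM on D8. Krt14, a keratin of the basal layer, stood at 26.7 and 26.9 CPM on D2 and 34.04 and 27.9 CPM on D8 and Krt16, a keratin of activated epidermis, at 41.6 and 40.6 CPM on D2 and 41.1 and 40.96 CPM on D8, neither called. Krt5, the partner of Krt14, was not tested, at 0.207 and 0.311 CPM on D2 and 0.3 and 0.538 CPM on D8. Trp63, the master factor of this lineage, was gained at a low level, from 0.149 and 0.299 to 2.21 and 2.05 CPM. Sfn, stratifin, was the member that fell, from 17.2 and 18.8 to 5.60 and 4.97 CPM.

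Among genes of other lineages, a handful were gained. Of 30 germline and piRNA genes 9 were tested and 7 rose (77.8%, beside 47.3% of all tested genes), with none lower on the deposited scale and 1 lower after quantile normalization. Gained were 5 of the 9 (55.6%, beside 4.68%). Genes under 1 CPM in both D2 libraries could be tested only by reaching 1 CPM on later days. The filter itself thus favours rises in lists with many genes silent on D2, here and above. Piwil2, a PIWI protein of the piRNA pathway, stood at 0.496 and 0.448 CPM on D2 and 33.3 and 43.2 CPM on D8 (log2 change 4.72 ± 0.12 (SE), adjusted p = 2e-12), while Ddx4 (Vasa) reached 2.11 and 2.25 CPM and Dazl was not tested. Of 25 neural genes 12 were tested, and 7 rose (58.3%, beside 47.3% of all tested genes) and 4 fell (4 and 4 after quantile normalization). Sox1, the factor of early neuroectoderm, was gained, from 0 and 0.0498 to 4.48 and 8.33 CPM, and stood nearly 2-fold apart between the D8 libraries. Tubb3 and Nes, both also expressed by cultured fibroblasts, fell from 168 and 168 to 44.1 and 43.2 CPM and from 218 and 219.8 to 49.2 and 49.6 CPM. Of 25 trophoblast and extraembryonic endoderm genes 9 were tested. Krt8, Pdgfra and Gata2 were among its risen members, and Cdx2, Eomes, Gata4 and Sox17 were not tested, being under 1 CPM in at least 7 of the 8 libraries.

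Interferon response genes rose almost without exception. Of 39 interferon response genes, all tested, 38 rose and none fell, with a median of 3.26 and 8 gained, and the sum of the list went from 311 and 309 CPM to 2086 and 2305 CPM. The same 38 against 0 was counted under both other scalings. Oas2, an oligoadenylate synthetase that senses double-stranded RNA, stood at 1.49 and 1.49 CPM on D2 and 189.7 and 181 CPM on D8 (log2 change 6.22 ± 0.24 (SE), adjusted p = 6.9e-11), and Oasl2 at 1.39 and 1.16 CPM on D2 and 149 and 164 CPM on D8 (log2 change 6.11 ± 0.25 (SE), adjusted p = 1.4e-10). Isg15, the ubiquitin-like modifier, rose from 1.86 and 2.24 to 34.2 and 39.9 CPM, and Ifit1, which binds foreign RNA caps, from 4.23 and 1.82 to 87.9 and 133 CPM. The transcription factors of the pathway moved with them, Irf7 from 2.73 and 3.19 to 71.5 and 74.02 CPM, Stat2 from 28.8 and 27.04 to 139.5 and 139 CPM and Irf9 from 18.6 and 20.1 to 89.5 and 80.6 CPM. Irf1, which responds to interferon gamma more than to type I interferon, was the uncalled member, at 24.2 and 24.01 CPM on D2 and 26.1 and 25.3 CPM on D8. The D8 libraries were not equal: Mx1 stood at 12.99 CPM in replicate 1 and 26.8 CPM in replicate 2, Rsad2 at 16.7 and 35.3 CPM, and Ifit2 at 17.3 and 38.3 CPM. Without D8 replicate 2 the rise of Ifit2 was 0.68 in place of 1.23 on the log2 scale. Ifit3 and Ifit3b, and the Oas1 genes, are near-identical copies whose reads the counting may have split, so their single values are uncertain. The pair of GAAA repeats shown above in Isg15, Ifit1 and Ifit3 were in 14 of 32 windows of the list (43.8%), beside 3.0% of all windows and 4.8% of windows of genes called at least 2-fold higher.

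Most antigen presentation genes rose as well, while their sum did not. Of 19 genes 16 rose and 3 fell, with a median of 1.48. The sum of the list stood at 4266.0 and 4216.5 CPM on D2 and 4201.8 and 4338.9 CPM on D8, so the days overlapped. H2-K1, a class I heavy chain, stood at 23.3 and 27.98 CPM on D2 and 131 and 125 CPM on D8 and B2m, its light chain, at 454 and 476 CPM on D2 and 964 and 922 CPM on D8. Psmb8 and Psmb9, the subunits of the immunoproteasome, were gained, from 0.422 and 0.398 to 10.1 and 8.50 CPM and from 0.298 and 0.697 to 7.06 and 6.87 CPM. The H2 genes share long stretches of sequence, and their individual values are uncertain for that reason. The 3 that fell, Calr, Pdia3 and Canx, are general chaperones of the endoplasmic reticulum, and all 3 were kept.

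Secreted inflammatory and acute-phase genes rose in a selective way. Of 26 tested, 20 rose and 5 fell, with a median of 2.38 and 9 gained. Lbp, the lipopolysaccharide-binding protein (chromosome 2, 158306493 to 158332852, mm10), stood at 1.69 and 1.64 CPM on D2 and 316 and 310.4 CPM on D8 (log2 change 6.88 ± 0.065 (SE), adjusted p = 2.9e-16), and Saa3, a serum amyloid A, at 0.0521 and 0.304 CPM on D2 and 139 and 112 CPM on D8. Complement followed: C3 stood at 1.89 and 2.49 CPM on D2 and 114 and 116 CPM on D8, Cfb at 1.16 and 1.36 CPM on D2 and 74.6 and 73.7 CPM on D8 and C4b at 0.397 and 0.448 CPM on D2 and 36.1 and 46.9 CPM on D8. Chemokines of the CXC class rose, Cxcl5 from 24.6 and 30.6 to 618 and 539 CPM, Cxcl1 from 3.92 and 5.78 to 61.5 and 53.9 CPM and Cxcl12 from 64.6 and 67.98 to 326 and 315 CPM, and Ccl11, eotaxin, went from 0 in both D2 libraries to 10.9 and 14.4 CPM. Other inflammatory genes were lower or not called. Il6 and Il11 were lost, from 1.64 and 1.49 to 0.464 and 0.666 CPM and from 2.98 and 3.16 to 0.927 and 0.735 CPM, Ptgs2, the inducible cyclooxygenase, was reduced from 229.8 and 232 to 26.1 and 27.9 CPM, and Ccl2 was not called, at 66.3 and 74.8 CPM on D2 and 71.2 and 64.3 CPM on D8. Cxcl10 was risen but stood at 7.50 and 28.9 CPM in the D8 libraries, and its rise was 1.58 without D8 replicate 2 in place of 2.49.

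Immediate-early and AP-1 genes were mostly lower. Of 25 tested, 3 rose and 19 fell, with a median of -1.22, and 13 were reduced and 1 lost. Atf3, a stress-induced factor, stood at 99.1 and 84.02 CPM on D2 and 1.03 and 0.769 CPM on D8 (log2 change -5.61 ± 0.14 (SE), adjusted p = 1.1e-12). Egr3, a target of calcium and growth factor signals, fell by 4.29 on the log2 scale. Fosb went from 37.99 and 31.9 to 1.49 and 2.15 CPM, and Fosl1 and Fosl2, the FRA proteins of AP-1, from 29.3 and 30.8 to 4.61 and 4.25 CPM and from 354 and 338 to 96.9 and 104 CPM. Jun and Jund fell but were kept, from 87.02 and 78.2 to 52.5 and 52.8 CPM and from 168 and 163 to 119 and 108 CPM. Egr1 and Ier2 were not called, and Dusp6, a feedback phosphatase of ERK signalling, rose from 5.41 and 5.43 to 15.5 and 15.5 CPM. The rise of Fos, from 2.43 and 3.44 to 4.07 and 4.15 CPM, was not called without D2 replicate 1 (adjusted p = 0.12).

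Energy metabolism shifted in its glycolytic arm. Of 24 tested glycolysis genes 4 rose and 17 fell, with a median of -1.23 and 15 reduced. Ldha, whose promoter is printed above, stood at 965 and 944 CPM on D2 and 267 and 235 CPM on D8 (log2 change -1.93 ± 0.070 (SE), adjusted p = 3.9e-11), Pgk1 at 520.1 and 510.4 CPM on D2 and 171 and 156 CPM on D8 and Eno1 at 1231 and 1194 CPM on D2 and 393 and 337 CPM on D8. These are enzymes of glycolysis below the sugar-splitting step and of lactate formation. Lactate carriers parted: Slc16a3 (MCT4), the exporter, went from 104 and 108 to 6.36 and 4.87 CPM and Slc16a1 (MCT1) rose from 45.1 and 46.3 to 150.3 and 152 CPM. Slc2a1, the glucose transporter GLUT1, stood at 136 and 133 CPM on D2 and 36.4 and 16.1 CPM on D8, so the D8 libraries differed by over 2-fold. The rise of Aldoc was 1.32 on the log2 scale with all libraries and 0.86 without D8 replicate 1. The letters ACGTG were in 14 of 36 windows of the list (38.9%), beside 16.6% of all windows and 20.8% of windows of tested genes. They were in 18.5% of windows of genes called at least 2-fold lower and in 14.7% of those at least 2-fold higher. Among the other lists searched the share ran from 6.2% for interferon genes to 33.3% for antigen presentation genes, both of which mostly rose.

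Respiration showed no shift of that size. Of 36 nuclear respiratory chain genes 7 rose and 8 fell, all were kept, and the median was 0.05 (1 against 18 after median-of-ratios scaling). The 13 mitochondrially encoded genes had a median of 0.38 and 12 rose, but 6 rose and 1 fell after median-of-ratios scaling. mt-Co1 stood at 9542 and 9578 CPM on D2 and 16065 and 14506 CPM on D8. Most cholesterol synthesis genes rose, though few by over 2-fold. Of 24 genes 20 rose and 2 fell, with a median of 0.61. By ratio of means 18 were kept (75.0%, beside 77.4% of all tested genes), 5 risen and 1 reduced, at a log2 change of -1.53. Among those that rose were Fdft1, squalene synthase, from 52.7 and 54.3 to 157 and 149 CPM, Dhcr7 from 23.01 and 21.6 to 44.9 and 49.7 CPM and Hmgcs1 from 132 and 139.8 to 234 and 237 CPM.

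Cell cycle genes stayed near their D2 levels. All 32 mitosis genes and 32 of 33 replication genes were within 2-fold, 97.0% of the latter beside 77.4% of all tested genes. Within that range 4 mitosis genes rose and 18 fell, with a median of -0.32, for example Anln, anillin, from 120.5 and 123 to 70.95 and 79.01 CPM, and Plk1, the mitotic kinase, which fell by 0.68 on the log2 scale. Mki67, the proliferation marker, stood at 129.9 and 123 CPM on D2 and 120.2 and 162 CPM on D8 and Top2a at 104 and 108 CPM on D2 and 111 and 115 CPM on D8, neither called. For replication genes 15 rose and 6 fell as deposited, but 5 rose and 13 fell after quantile normalization, so no direction is given. Rrm2, the ribonucleotide reductase subunit, was the one reduced, from 102 and 99.4 to 44.1 and 52.5 CPM. Among 20 inhibitors and p53 targets, Cdkn1c (p57) rose from 3.08 and 3.04 to 29.5 and 45.6 CPM and Cdkn2b (p15) fell from 106 and 106 to 43.7 and 40.1 CPM. Cdkn2a, the locus of p16 and p19ARF, was not called, at 80.2 and 80.7 CPM on D2 and 82.3 and 70.6 CPM on D8, and Cdkn1a (p21) was kept, from 1004 and 993 to 835 and 822 CPM.

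Chromatin enzymes moved by small amounts, with exceptions. Of 16 genes of DNA methylation and its removal 8 rose and 4 fell, but 6 against 6 under both other scalings. Tet1, a dioxygenase that oxidises 5-methylcytosine, rose from 1.39 and 2.00 to 8.55 and 11.4 CPM, Tet2 from 35.3 and 38.05 to 121 and 128 CPM and the de novo methyltransferase Dnmt3a from 44.03 and 43.6 to 107 and 111 CPM. Gadd45b, a stress gene tied to demethylation, was reduced from 71.5 and 67.7 to 10.2 and 10.8 CPM. The other 3 members that fell were kept. Dnmt1 was not called, at 63.8 and 65.3 CPM on D2 and 60.2 and 69.05 CPM on D8. Of 28 Polycomb genes 16 rose (57.1%, beside 47.3% of all tested genes) and 4 fell, or 13 and 8 after quantile normalization, with Ezh1 from 28.97 and 28.4 to 61.7 and 63.5 CPM, Cbx6 from 81.7 and 87.5 to 185 and 184 CPM and Jarid2 from 13.6 and 14.2 to 28.5 and 35.6 CPM among those risen. Suz12 and Eed, core subunits of PRC2, were not called, at 52.4 and 50.8 CPM on D2 and 50.4 and 52.6 CPM on D8 and at 33.98 and 35.6 CPM on D2 and 32.2 and 30.7 CPM on D8.

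Most genes of protein folding stress fell. Of 21 genes of the unfolded protein and ATF4 responses 2 rose and 16 fell, with a median of -0.62. Targets of ATF4 in amino acid and one-carbon metabolism fell most: Mthfd2 went from 77.3 and 80.8 to 18.4 and 18.1 CPM, Psat1 from 245 and 244 to 91.99 and 90.9 CPM and Trib3 from 30.9 and 31.1 to 4.89 and 4.10 CPM. Of 16 cytosolic heat shock genes none rose and 15 fell, with a median of -0.50, such as Cryab from 288 and 289.5 to 143 and 133 CPM and Hspb1 from 99.3 and 91.99 to 49.4 and 45.4 CPM. Hspa1a and Hspa1b, near-identical copies whose single values are uncertain, were both reduced. Ribosomal protein genes were all kept, and their direction depends on the scaling (19 higher and none lower of 40 as deposited, 2 and 9 after median-of-ratios scaling). Of 25 ribosome biogenesis genes 4 rose and 13 fell, with a median of -0.15.

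The lists of other cell types that such cultures can hold gave no single direction. They hold 98 genes, of which 52 were tested, and 21 rose (40.4%, beside 47.3% of all tested genes) and 14 fell (26.9%, beside 23.1%). The 17 tested macrophage and haematopoietic genes, of 22, summed to 113 and 154 CPM on D2 and to 135 and 118 CPM on D8, so the days overlapped, and 4 rose and 5 fell (1 and 12 after quantile normalization). Ptprc (CD45) stood at 2.23 and 3.14 CPM on D2 and 2.27 and 2.72 CPM on D8 and Csf1r at 8.78 and 11.2 CPM on D2 and 8.84 and 7.54 CPM on D8, neither called. Among those that rose were Cd14, from 2.18 and 3.14 to 6.75 and 4.82 CPM, and Mrc1, from 2.83 and 2.24 to 5.92 and 4.25 CPM. Adgre1 (F4/80) was called higher, at 3.08 and 6.03 CPM on D2 and 7.83 and 5.74 CPM on D8, but its days overlapped. Its log2 change of 0.53 was 0.92 without D2 replicate 2, and it was not called without D2 replicate 1 (0.14, adjusted p = 0.52) or D8 replicate 1 (0.33, adjusted p = 0.26). The part of these cells in the inflammatory and interferon genes was not tested. Of 16 endothelial genes 9 were tested, and Cdh5, the defining cadherin, stood at 0.0992 and 0.448 CPM on D2 and 0.155 and 0.102 CPM on D8. Of those tested 4 rose and 5 fell. Tek rose from 64.3 and 66.2 to 161 and 163 CPM and Flt1 fell from 69.1 and 68.9 to 19.6 and 15.9 CPM. Plvap was gained, from 0.744 and 0.398 to 5.10 and 4.97 CPM. Of 15 skeletal muscle genes 3 were tested, and Myod1 was listed at 0 in the 4 libraries. Of 17 cartilage and bone genes 9 were tested, 5 rose (55.6%, beside 47.3% of all tested genes) and 1 fell. Col2a1, the chain of type II collagen, rose from 6.20 and 7.22 to 33.6 and 24.5 CPM and Bglap, osteocalcin, from 1.18 and 1.41 to 14.9 and 12.8 CPM. Comp was gained, from 0.149 and 0.199 to 4.6 and 5.5 CPM. Sox9 was not called, at 14.6 and 13.4 CPM on D2 and 12.9 and 14.1 CPM on D8. Of 14 adipocyte genes 8 were tested, and 3 rose and 1 fell (1 and 4 after quantile normalization). Of 14 melanocyte and Schwann cell genes 6 were tested, and 5 rose and none fell (2 rose after quantile normalization). The largest of these rises was that of Mbp, from 2.78 and 2.84 to 21.8 and 23.1 CPM. Adipoq and Sox10, defining genes of adipocytes and of the melanocyte and Schwann lineage, reached at most 0.564 CPM.

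Beyond the lists, the genes with the largest net rise included several secreted products of connective tissue. Myoc, myocilin (chromosome 1, 162639155 to 162649693, mm10), stood at 1.22 and 1.20 CPM on D2 and 361 and 358 CPM on D8 (log2 change 7.35 ± 0.056 (SE), adjusted p = 4.1e-17) and overlaps the gene Myocos, from whose reads its own cannot be told where strand is not used. Agtr2, an angiotensin receptor of fetal mesenchyme, stood at 0.942 and 0.797 CPM on D2 and 190.5 and 226 CPM on D8, and Atp2a3, a calcium pump, at 7.19 and 7.20 CPM on D2 and 536 and 616 CPM on D8 (log2 change 6.13 ± 0.063 (SE), adjusted p = 4e-16). Kera, keratocan, which lies near Lum on chromosome 10, went from 0 and 0.0996 to 60.7 and 62.2 CPM, and Clec3b, tetranectin, from 0.0496 and 0.0498 to 44.4 and 43.6 CPM. The D2 values of both lie under 3 reads, so no fold is given. Tspan8, a tetraspanin, went from 0.992 and 1.10 to 86.1 and 76.1 CPM and Itih5, an inhibitor chain of the hyaluronan matrix, from 3.17 and 3.54 to 162 and 169 CPM. Among the largest falls outside the lists were Gjb2, connexin 26, from 36.3 and 32.6 to 0.464 and 0.154 CPM, Noct, a circadian gene, from 130.2 and 119.9 to 8.33 and 7.84 CPM, and Nipal1, a magnesium transporter-like protein, from 46.4 and 46.2 to 1.80 and 1.90 CPM. Coch, cochlin, fell from 26.3 and 24.9 to 1.80 and 0.871 CPM and Cavin4, a caveolar protein of muscle, from 18.8 and 17.03 to 0.618 and 0.359 CPM. In these 5 genes both D8 libraries lay far below both D2 libraries.

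The net difference did not always build up step by step. Of the genes called higher, 49.9% had both middle days between the end points, while 41.2% had a mean on D4 or D6 above both ends and none below. A further 1.4% had 1 middle day above both ends and 1 below. Of the genes called lower, 47.3% lay between, 38.7% went below both ends and not above, and 1.3% went both above and below. Most of these excesses were small: 13 of the genes called higher (0.2%) went over 2-fold above both ends, and 31 of those called lower (0.9%) over 2-fold below. Among genes not called, 37.6% had a middle day above both ends and none below, and 17.8% had 1 above and 1 below. Egr1 is a case in which the span hides a passage, with 54.4 and 44.7 CPM on D2, 394 and 398 CPM on D4, 45.4 and 41.5 CPM on D6 and 48.8 and 51.6 CPM on D8, and it was not called between the ends (adjusted p = 0.8). Zfp36, an RNA-destabilising factor, had means of 20.2, 83.5, 20.2 and 18.9 CPM on the 4 days, and Ier2 behaved alike, at 22.7, 68.4, 25.5 and 26.3 CPM. These are immediate-early genes, high on D4 alone. Cxcl10 was at 1.88, 60.5, 36.2 and 18.2 CPM, so its D8 level lay below that of D4. Itga3, an integrin chain, showed the opposite, at 12.4, 5.08, 9.35 and 11.1 CPM, and Ndrg1, a stress-responsive gene, at 65.4, 14.2, 25.9 and 33.4 CPM. By contrast Lum stood at 10.9 and 11.8 CPM on D2, 479.6 and 427 CPM on D4, 540.1 and 532 CPM on D6 and 819 and 869 CPM on D8, and each later day lay above the one before. Acta2 stood at 2448 and 2339.9 CPM on D2, 517 and 507 CPM on D4, 534 and 625 CPM on D6 and 752 and 628 CPM on D8, so its libraries of each later day lay below those of D2. No test was made between these courses.

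**Figure D4:**
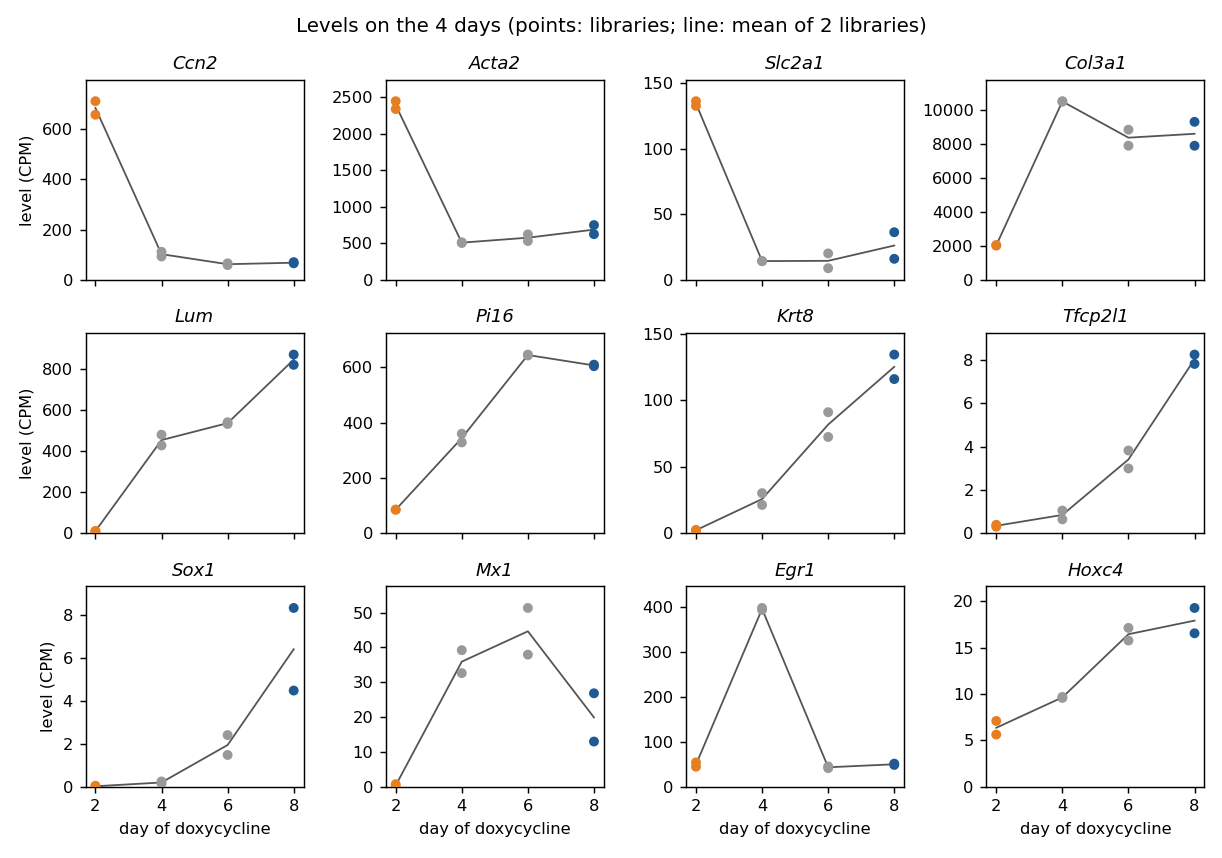
Level of 12 genes on D2, D4, D6 and D8, each point a library, lines through the means of the 2 libraries, on linear axes in CPM that start at 0 and differ between panels. Lum and Krt8 climbed to D8, Ccn2 and Acta2 were low from D4 on, and Egr1 peaked on D4 and was back at its D2 level on D8.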

How the data were processed

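RNA was sequenced from 8 libraries, 2 each on D2, D4, D6 and D8. The deposited table, named TPM by the authors, holds CPM: each column sums to 1000000 with no length correction, and values are hundredths of what 1 read is worth, from which the depth was computed. Whole reads made up 52.8% to 54.3% of non-zero values, so no count test was used. The table was fixed in the design as TPM; the same test was kept. Per the submitters' processing notes, Trimmomatic 0.39, featureCounts and the build mm10 were used; for the aligner, the annotation, strand handling and the fractions of a read, the sources used here give nothing. Of 32108 genes, 15358 with 1 CPM or more in 2 or more libraries were tested on log2(CPM + 1) in limma 3.58.1 (R 4.3.3), with day as a factor over all 8 libraries (4 residual degrees of freedom), a trended prior, two-sided moderated tests and Benjamini-Hochberg adjustment over all tested genes. A fold on this scale understates changes of low genes, so folds in the text are ratios of mean CPM; none is given where D2 or D8 is at the floor of 3 reads (0.149 to 0.155 CPM). The members and gene lists were chosen with earlier results of these data known. Genes were named by rule: the 15 largest rises and falls with at least 5 CPM, up to 4 called members a list in each direction, the most abundant and the highest uncalled members; further list members were named after their values were seen, and some genes are not reported here. The test recovered known changes in simulated data, in which far fewer genes changed than here and no shift of scale was built in. That run therefore does not bear on how the counts depend on the scale. Other pseudocounts, filters, scalings, a replicate term and left-out libraries were tried. Figures were drawn with matplotlib 3.10.9.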

Additional observations from a re-analysis of the deposited data

How the results depend on the processing

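The count of genes called higher was 7258 and of genes called lower 3549, and both kept within 1.5 times under the other pseudocount, filters, prior, median-of-ratios scaling and left-out libraries. Quantile normalization gave 4819 higher and 5876 lower, with 1493 called genes at least 2-fold higher by ratio of mean values (2462 as deposited) and 1432 called genes at least 2-fold lower by ratio of mean values (948). Gained genes, 719, numbered 371 after quantile normalization and 174 with a filter of 5 CPM in 2 libraries, which by construction tests fewer low genes. Lost genes, 204, numbered 388 and 13 under the same alternatives and 80 to 222 with 1 library left out. With the replicate number as a block, which the labels do not give as a pairing, 7347 genes were called higher and 3582 lower. Same-numbered libraries of different days deviated together by correlations from -0.102 to 0.207, so the numbers were not treated as pairs. Among the named genes called on the deposited scale or after rescaling, the direction of 5 depended on the scaling. After quantile normalization the log2 changes were -0.05 for Fos, 0.00 for Cdkn1a, 0.00 for Lox and 0.12 for Prrx1 (adjusted p = 0.048). For Ddr2 median-of-ratios scaling gave -0.16 (adjusted p = 0.021). Named genes called on neither scale changed sign too. They numbered 7 after median-of-ratios scaling, 6 after quantile normalization and 5 after rescaling without mitochondrially encoded genes. The cause of these shifts was not tested. Genes near the floor of 3 reads are limited by depth, and with 2 libraries a day the spread within a day is poorly known.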

Other observations

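Several genes outside the lists changed strongly and were picked after their values were seen. Slurp1, a secreted protein of skin, stood at 26.02 and 23.3 CPM on D2 and 517 and 416 CPM on D8, Lypd2 of the same protein family at 1.69 and 1.84 CPM on D2 and 73.2 and 65.3 CPM on D8, and Col17a1, a hemidesmosome collagen of epidermis, at 0.595 and 0.448 CPM on D2 and 38.1 and 35.8 CPM on D8. Ahsg, fetuin A, a serum protein of liver, stood at 0.397 and 0.324 CPM on D2 and 25.8 and 27.6 CPM on D8. H19, an imprinted long non-coding RNA of fetal tissue, stood at 1094 and 1093 CPM on D2 and 3706 and 3476 CPM on D8 (log2 change 1.71 ± 0.061 (SE), adjusted p = 3.3e-11), while Igf2, its neighbour, rose from 712 and 713 to 1006 and 1014 CPM. Xist rose from 702 and 742 to 1211 and 1238 CPM.

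Some D8 values rest on libraries that differ. Cxcl10 stood at 7.50 and 28.9 CPM, Oasl1 at 2.52 and 7.79 CPM, Mx1 at 12.99 and 26.8 CPM and Slc2a1 at 36.4 and 16.1 CPM in D8 replicates 1 and 2, while Oas2, at 189.7 and 181 CPM, did not differ in that way.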
